A study of Mus musculus with 6 samples.

Results

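Myosin heavy chains are the motor subunits that bind actin filaments and turn ATP hydrolysis into movement. The genes described are Myo3b, Myo1c, Myo1d, Myo1e, Myo1f, Myo1g, Myo5a, Myo9b, Myh9 and Myo18a, 10 of the 54232 genes in the deposited table. They were taken by their gene symbol and had been selected on their CPM values in KO against WT. Their own KO against WT values are therefore a description without a test, and tests are given only for genes other than the 10. The libraries hold RNA of GFP-positive Treg cells (regulatory T cells), a CD4 lineage that restrains immune responses, isolated from mouse spleen. Of the 6 libraries, 3 came from wild-type (WT) mice and 3 from conventional BAF60b knockout (KO) animals. BAF60b, encoded by Smarcd2, is a subunit of SWI/SNF, a complex that remodels chromatin. In a conventional knockout the gene is disrupted in all cells of the animal, not in Treg cells alone. The sources used here do not give age, sex, strain, the reporter behind the GFP signal or the number of mice per library.

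In T cells, the conventional myosin II motor drives contraction and retraction during migration, and its heavy chain in lymphocytes is mainly the product of Myh9. Single-headed class I myosins tie the plasma membrane to cortical actin and set its tension. Other classes carry cargo or, in class III, combine the motor with a protein kinase domain. Light chains and calmodulin bind the neck of each heavy chain, and kinases and a phosphatase acting on the light chains set the activity of myosin II.

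Values are in CPM, the raw count of a gene scaled to the total of its library. Means are followed by the SD over the 3 libraries of a genotype. Log2 fold changes compare KO with WT (positive where KO is higher) and carry their SE, from edgeR's quasi-likelihood fit over the 13602 genes that passed the filter on low counts. A gene is called at a Benjamini-Hochberg adjusted p under 0.05 over all of those genes. All 10 heavy chains passed the filter, and each had at least 33 reads in every library. Library totals lay between 18167053 and 22502804 reads. The targeted gene, Smarcd2, had 3729, 4173 and 3807 reads in WT and 1157, 1131 and 1335 in KO. Its log2 fold change was -1.77 (SE 0.05). Reads of Smarcd2 thus remained in KO, at 57.5 to 59.3 CPM against 189.2 to 205.3 in WT. Counts per gene do not show which part of the gene they come from. The Treg markers Foxp3, Il2ra, Ctla4, Ikzf2 and Tnfrsf18 summed to between 3025 and 3246 CPM in WT and between 3253 and 3625 CPM in KO. Macrophage markers stood apart in 1 library: their sum over 9 genes was 138.1 CPM in KO 2, against 61.0 in KO 1, 22.0 in KO 3 and 40.5 to 50.9 in WT. None of these 9 genes was called by edgeR (0 of 9, and 0 at an unadjusted p under 0.05), and no neutrophil marker passed the filter. Erythroid markers were also highest in KO 2, at 12.7 CPM over 6 genes against at most 3.25 in any other library. Dendritic cell markers, summed over 8 genes, lay between 128.8 and 199.1 CPM in WT and between 95.5 and 128.0 in KO. By edgeR, Ccr9 of the dendritic cell list, Cd79b of the B cell list and Klrb1c of the NK cell list fell. Of the 5 Treg markers Ikzf2 alone rose. Among those tested, 1 of 3 dendritic cell, 1 of 2 NK cell and 0 of 3 B cell markers were higher in KO. These were Zbtb46 (log2 fold change 0.77, adjusted p = 0.0601 by edgeR) and Eomes (0.71, adjusted p = 0.0560), neither called. The NK cell sum over 4 genes was 4.82 to 6.42 CPM in WT and 5.89 to 7.01 in KO. Most of the dendritic cell sum came from Bst2 and Ccr9, while Siglech, Xcr1, Clec9a and Flt3 reached at most 0.258 CPM. That sum therefore mainly follows Bst2 and Ccr9, and whether it reflects dendritic cells was not tested. The part of these other cell types in the heavy chain values was not tested. WT 1 and KO 2 held no reads of the Y-linked genes Ddx3y, Eif2s3y, Kdm5d and Uty, which reached between 143.1 and 450.3 CPM in the other 4 libraries. In bulk RNA, a change in the share of cells that express a gene and a change in RNA per cell cannot be told apart.

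Among heavy chains, Myo3b and Myo1e were higher in KO, and Myo6, which is not among the 10, was lower. The sequences upstream of their annotated start sites are shown because these are the heavy chain genes with the largest differences at levels above 10 CPM, in opposite directions. Each is the 250 bases before the start site in RefSeq, build GRCm38.p6, plus strand: chr2:70038876-70039125 for Myo3b, chr9:70207100-70207349 for Myo1e and chr9:80164784-80165033 for Myo6. Capitals mark matches, on either strand, to any of 8 motifs: the ETS core GGAAGT, the RUNX core TGTGGT, the forkhead core TGTTTAC, AP-1 TGANTCA, the GC box GGGCGG, the CCAAT box CCAAT, the TATA box TATAAA and the CRE TGACGTCA.
Myo3b: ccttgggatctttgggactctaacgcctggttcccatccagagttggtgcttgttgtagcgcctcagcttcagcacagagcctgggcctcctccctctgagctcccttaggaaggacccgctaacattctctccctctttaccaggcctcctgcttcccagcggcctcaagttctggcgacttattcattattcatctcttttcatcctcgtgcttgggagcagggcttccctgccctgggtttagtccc
Myo1e: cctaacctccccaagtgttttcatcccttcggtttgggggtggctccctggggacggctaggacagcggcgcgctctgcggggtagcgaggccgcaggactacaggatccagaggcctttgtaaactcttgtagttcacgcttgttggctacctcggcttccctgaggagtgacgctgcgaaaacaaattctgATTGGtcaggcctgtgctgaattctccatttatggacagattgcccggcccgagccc
Myo6: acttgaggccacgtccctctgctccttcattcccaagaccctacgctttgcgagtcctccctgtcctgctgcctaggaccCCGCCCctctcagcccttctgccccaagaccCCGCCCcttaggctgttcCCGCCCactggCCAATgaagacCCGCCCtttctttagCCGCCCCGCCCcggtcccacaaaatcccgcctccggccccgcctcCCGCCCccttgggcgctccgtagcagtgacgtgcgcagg
The Myo3b window held none of the 8 motifs, had a GC content of 56.0% and contained 6 CpG dinucleotides. That of Myo1e had 58.0% GC, 14 CpG and 1 CCAAT box. That of Myo6 had 67.6% GC, 18 CpG, 7 GC box matches and 1 CCAAT box. Among 32851 promoter windows of this length, 32.7% held a GC box and 33.8% a CCAAT box, and the median GC content was 52.4% with 6 CpG. ETS matches occurred in 19.7% of windows, RUNX in 14.0%, TATA in 12.4%, AP-1 in 6.75%, forkhead in 3.17% and CRE in 1.55%. Which start sites Treg cells use was not measured.

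Levels of different genes were compared per kilobase of annotated exon. Among the 10 in WT, Myh9 stood first with 183.7 ± 3.54 CPM per kilobase and made up 54.0 ± 0.76% of the summed level of the 38 listed heavy chains. Myo1g, a class I myosin of blood cells, followed with 53.6 ± 1.07 CPM per kilobase, and Myo9b, a class IX myosin, with 31.6 ± 1.07. Myo1f, a class I myosin of leukocytes, stood at 19.4 ± 1.30, Myo1e at 12.9 ± 0.57, Myo18a at 11.6 ± 0.32 and Myo1c at 9.93 ± 0.27. Myo3b (2.47 ± 0.02) and Myo5a (2.32 ± 0.27) came next, and Myo1d was last of the 10 with 0.36 ± 0.01. Neighbours in this order did not overlap between their 3 WT libraries, except Myo3b and Myo5a. The order of the means was the same in KO. There the libraries of Myo3b (4.56 ± 0.07 CPM per kilobase) no longer overlapped those of Myo5a (2.66 ± 0.06), while those of Myo18a (12.1 ± 0.41) and Myo1c (11.9 ± 0.15) did overlap. In KO the share of Myh9 was 51.6 ± 1.56%, and its libraries overlapped those of WT (53.3% in KO 1, 53.2% in WT 1). The level of Myh9 in KO was 182.7 ± 8.60 CPM per kilobase, close to that in WT. The share of Myo3b was 1.29 ± 0.02% in KO against 0.73 ± 0.01% in WT.

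Myo3b encodes a class III myosin, known from the actin protrusions of hair cells in the inner ear. Its gene (ENSMUSG00000042064) lies on chromosome 2, 70039126 to 70429198, plus strand, mm10. It had 318, 364 and 348 reads in WT and 651, 627 and 709 in KO. These are 17.5, 17.3 and 17.3 CPM in WT and 32.3, 32.4 and 31.5 CPM in KO. All KO libraries were above all WT libraries, and the log2 fold change was 0.87 (SE 0.07), or 1.83-fold. The SD was 0.69% of the mean in WT and 1.54% in KO, smaller than the counting error of a single library (3.76% to 5.61%). The spread between these libraries therefore understates the error of a Myo3b value. With any 1 library left out, the log2 fold change lay between 0.86 and 0.89. Its paralog Myo3a had no read in any library. A count of 0 allows up to 3 reads, which is between 0.133 and 0.165 CPM.

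Of the class I myosins, Myo1e and Myo1c were higher in KO, and Myo1g was higher by less. Myo1e encodes a long-tailed class I myosin that acts in endocytosis and at cell contacts (ENSMUSG00000032220, chromosome 9, 70207350 to 70399766, plus strand). It had 76.5, 74.2 and 70.1 CPM in WT and 100.2, 105.3 and 91.1 CPM in KO. The groups did not overlap, and the log2 fold change was 0.41 (SE 0.06). Myo1c encodes a short-tailed class I myosin that links membranes to actin (ENSMUSG00000017774, chromosome 11, 75650504 to 75673910, plus strand). It had 65.7, 63.4 and 67.0 CPM in WT and 78.7, 76.9 and 78.5 CPM in KO, again without overlap, with a log2 fold change of 0.24 (SE 0.05). Both differences were smaller than that of Myo3b. Without KO 2, the library with the highest macrophage marker sum, the log2 fold change was 0.37 for Myo1e, 0.26 for Myo1c and 0.87 for Myo3b.

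Myo1g (ENSMUSG00000020437, chromosome 11, 6506548 to 6520965, minus strand) had 381.6, 370.2 and 367.5 CPM in WT and 400.0, 438.8 and 429.7 CPM in KO. Its groups did not overlap either, but the distance was small, with a log2 fold change of 0.17 (SE 0.05). Myo1f (ENSMUSG00000024300, chromosome 17, 33555719 to 33607764, plus strand) had 104.0, 93.6 and 92.1 CPM in WT and 102.5, 126.6 and 92.6 CPM in KO. Only KO 2 exceeded the WT libraries, and KO 2 was also the library with 138.1 CPM of macrophage markers. Among the WT libraries, WT 1 had the most Myo1f but the lowest sum of these markers, 40.5 CPM. With all libraries the log2 fold change of Myo1f was 0.14 (SE 0.10), and without KO 2 it was 0.0094. It was 0.24 without KO 3, the library with the fewest reads of these markers. Adding the summed Y-linked CPM of each library as a covariate, chosen after seeing the data, gave 0.24 (SE 0.05). WT 1 and KO 2 were the libraries without Y-linked reads. Whether either measure accounts for the Myo1f values was not tested. Myo1d (ENSMUSG00000035441, chromosome 11, 80482126 to 80780025, minus strand), another short-tailed class I myosin, was scarce. It had 43, 47 and 47 reads in WT and 45, 36 and 33 reads in KO, and the groups overlapped at a log2 fold change of -0.33 (SE 0.23). That value was -0.18 without KO 3 and -0.50 without KO 1.

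For the other 4 heavy chains, log2 fold changes lay between -0.10 (Myo9b) and 0.19 (Myo5a). Myh9, the heavy chain of non-muscle myosin IIA (ENSMUSG00000022443, chromosome 15, 77760587 to 77842175, minus strand), had 2350, 2427 and 2346 CPM in WT and 2482, 2344 and 2262 CPM in KO. The KO libraries lay on both sides of the WT values, at a log2 fold change of -0.02 (SE 0.05). That value changed sign without KO 3, to 0.01. Myo18a, an unconventional myosin that interacts with myosin II filaments and the Golgi (ENSMUSG00000000631, chromosome 11, 77763246 to 77865980, plus strand), had 179.4, 188.5 and 187.9 CPM in WT and 199.2, 196.9 and 187.0 CPM in KO. Its groups overlapped, with a log2 fold change of 0.06 (SE 0.05).

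Myo5a, the heavy chain of a processive cargo motor (ENSMUSG00000034593, chromosome 9, 75071015 to 75223688, plus strand), had 32.3, 31.7 and 38.9 CPM in WT and 38.9, 38.8 and 40.4 CPM in KO. WT 3 lay at the level of the KO libraries, and the log2 fold change was 0.19 (SE 0.09). Without WT 3 it was 0.29, and without WT 2 it was 0.13. Myo9b (ENSMUSG00000004677, chromosome 8, 71272714 to 71360713, plus strand) had 245.8, 235.8 and 230.1 CPM in WT and 228.0, 227.4 and 215.8 CPM in KO. The 3 KO libraries were just below the lowest WT library, at a log2 fold change of -0.10 (SE 0.05). Exons of Myo9b share 116 bases with those of Haus8 on the opposite strand, which had 2668 reads over the 6 libraries against 27905 for Myo9b.

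**Figure D1:**
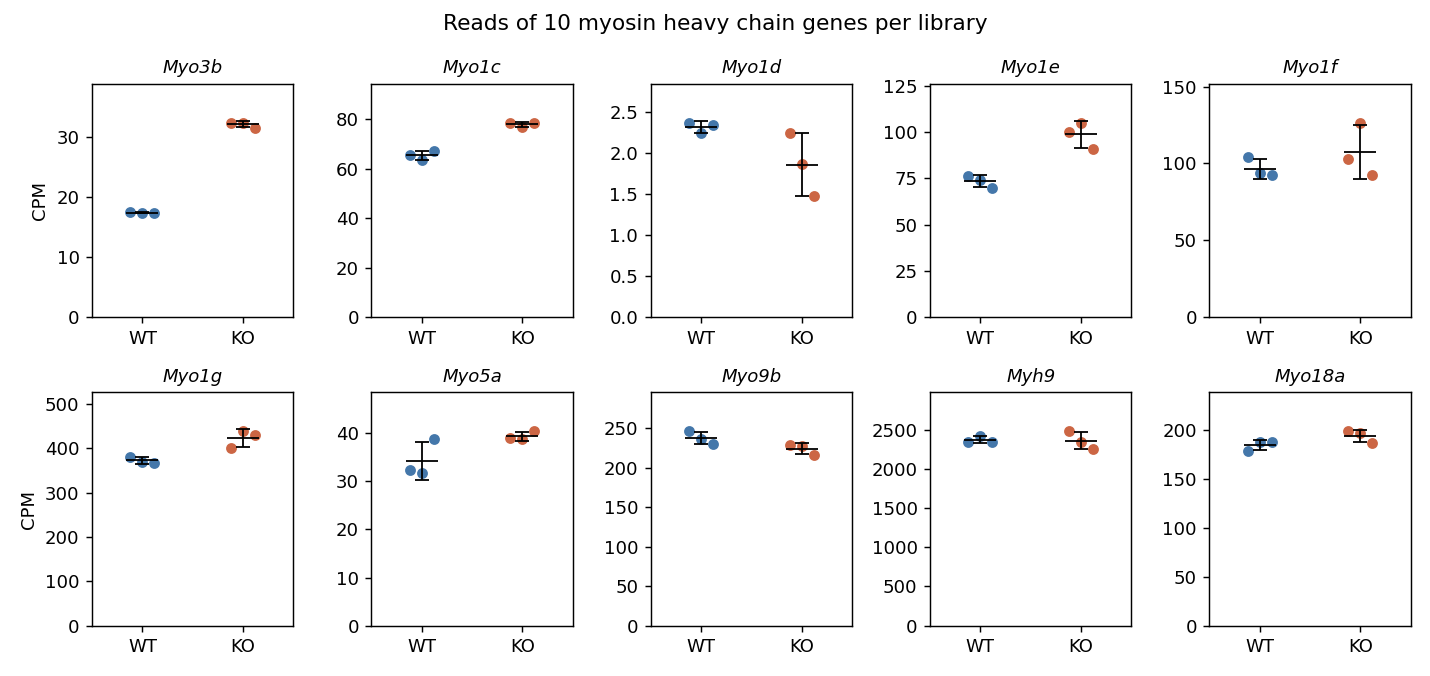
CPM of the 10 myosin heavy chain genes in each of 3 WT and 3 KO libraries (points), with the mean and SD of each genotype (black); each panel has its own linear axis from 0. Myo3b sits at 17.3 to 17.5 CPM in WT and 31.5 to 32.4 CPM in KO, while Myh9 overlaps between genotypes.

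Of the 10 genes, 4 were higher and 1 was lower in KO with no overlap between KO and WT libraries. Over all tested genes 25.4% had no overlap, 13.6% higher and 11.8% lower in KO. Since the 10 were selected on this contrast, these counts are not evidence about myosins as a group. The median log2 fold change of the 10 was 0.15, against 0.00403 over all tested genes, and it carries the same limit. In the 9 other tested heavy chains, which are what that choice left, the median was -0.07. The summed CPM of the 10 genes was 3459 ± 42.7 in WT and 3561 ± 119.7 in KO, and these ranges overlapped.

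Other heavy chains, which are not among the 10, were tested. They are what remained of the family after the 10 were selected on this same contrast. Their counts of called genes are therefore not independent of that choice. Of 28 further heavy chain genes, 9 passed the filter, and of these 0 rose and 1 fell, where 6.45% of all tested genes were called, 3.25% as higher. The gene that fell was Myo6, a myosin that moves toward the pointed end of actin filaments, opposite to most myosins, and acts in endocytosis (ENSMUSG00000033577, chromosome 9, 80165031 to 80311729, plus strand). It had 55.9, 62.4 and 71.5 CPM in WT and 28.6, 31.0 and 31.7 CPM in KO. Every KO library was at or below 31.7 CPM and every WT library at or above 55.9 CPM, and the log2 fold change was -1.07 (SE 0.09, adjusted p = 0.000324 by edgeR). This call held under every alternative run, with adjusted p up to 0.00487. Per kilobase of exon, the ratio of Myo3b to Myo6 was 0.54, 0.48 and 0.41 in WT 1, 2 and 3 and 1.94, 1.79 and 1.70 in KO 1, 2 and 3. By this measure Myo3b was below Myo6 in each WT library and above it in each KO library. The crossing rests on the annotated exon lengths, 7.039 kb for Myo3b and 12.078 kb for Myo6. In CPM the KO values were close, and in KO 3 Myo3b (31.5) was just below Myo6 (31.7). Since Myo3b was selected on this contrast, the ratio is a description.

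The other 8 tested heavy chains did not pass in edgeR. Of the 9 tested, Myo6 included, 5 had an unadjusted p under 0.05 in edgeR, against 2780 of all 13602 tested genes. Without overlap between the groups, 2 of the 9 were higher and 3 lower in KO, where 25.4% of all tested genes had no overlap. These counts too are not independent of the choice of the 10. Myo7a had 9.33 ± 0.57 CPM in WT and 7.23 ± 0.31 in KO (log2 fold change -0.38, adjusted p = 0.0767), without overlap. Myh10, the heavy chain of non-muscle myosin IIB, had 1.43 ± 0.04 CPM in WT and 2.29 ± 0.02 in KO (log2 fold change 0.66, adjusted p = 0.107), also without overlap, on 26 to 52 reads a library. At such counts the counting error of a single library exceeds these SDs. For Myo19, a motor of mitochondria, the log2 fold change was 0.25 (adjusted p = 0.203), without overlap. For Myo5c, a relative of Myo5a at under 1 CPM, it was -1.01 (adjusted p = 0.204), again without overlap. Myo9a (0.14, adjusted p = 0.464), Myo10, which acts in filopodia (-0.07, adjusted p = 0.874), Myh15 (-0.98, adjusted p = 0.283) and Myo1h (0.26, adjusted p = 0.421) completed the list. Exons of Myo1h share 1530 bases with those of Kctd10 on the opposite strand, which had 7011 reads against 836, so the count of Myo1h is uncertain. Exons of Myo19 share 277 bases with those of Znhit3 and 106 with those of Pigw, both on the opposite strand, and its count is likewise uncertain. Of the 19 heavy chains that did not pass the filter, 7 had no read in any library. These were Myh1, Myh2, Myh4, Myh7 and Myh8 of striated muscle, Myo3a and Myo7b. The remaining 12 had at most 46 reads over the 6 libraries.

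**Figure D2:**
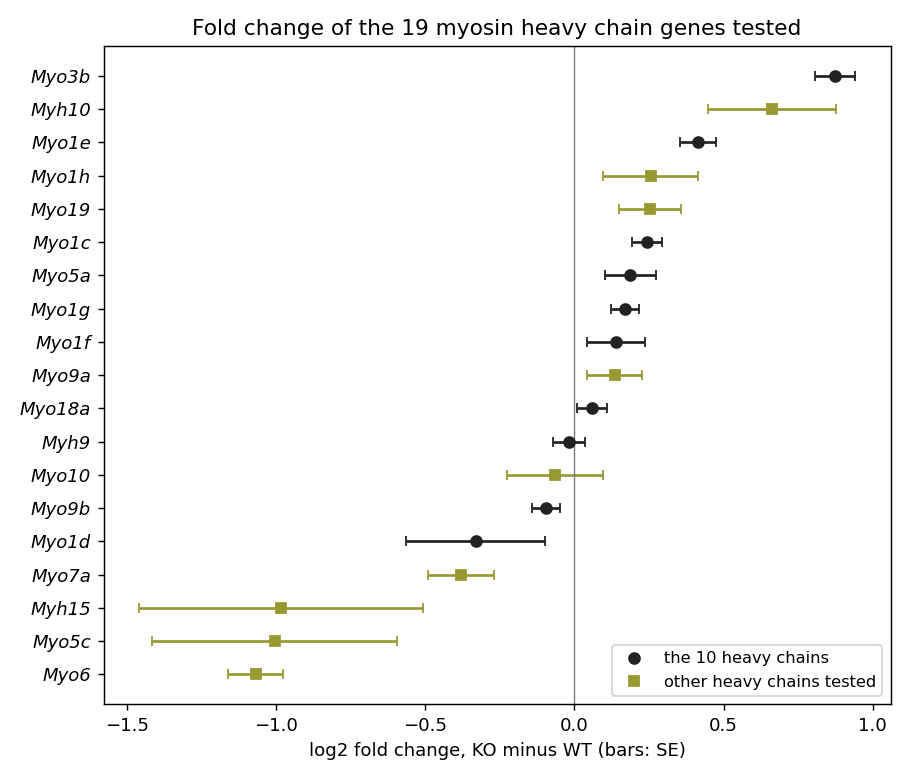
Log2 fold change (KO minus WT, with SE as bars) of the 19 myosin heavy chain genes that passed the filter; circles are the 10 heavy chains described and squares the 9 others. Myo3b lies at 0.87 and Myo6 at -1.07, and Myh9 lies at -0.02.

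Of 16 listed light chain and calmodulin genes, whose products bind the heavy chain necks, 9 passed the filter. Of these, 0 were called by edgeR, DESeq2 or limma-voom, with 2 at an unadjusted p under 0.05 in edgeR. With 6.45% of all tested genes called, a count of 0 among 9 genes does not set this list apart. Myl6, the essential light chain of non-muscle myosin II, had 377.9 ± 14.97 CPM in WT and 345.9 ± 15.2 in KO (log2 fold change -0.14, adjusted p = 0.190). The regulatory light chain genes Myl12a and Myl12b had log2 fold changes of 0.08 (adjusted p = 0.601) and -0.08 (adjusted p = 0.376). Both are near-identical copies that adjoin each other, so reads may be split between them. Myl4 had the smallest p of the list, with 1.99 ± 0.23 CPM in WT and 3.09 ± 0.48 in KO (log2 fold change 0.62, adjusted p = 0.124). Myl9, the smooth muscle regulatory light chain, had at most 10 reads in a library, in KO 2. The median log2 fold change of the 9 was 0.05.

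Among kinases and phosphatase subunits that act on the light chains, listed together with 3 small GTPases, 1 of 16 tested genes rose and 0 fell, near the share of 6.45% called over all tested genes. Cdc42bpb encodes MRCK beta, a kinase downstream of Cdc42 that raises light chain phosphorylation. It had 1.76, 1.57 and 3.58 CPM in WT and 4.87, 8.52 and 7.55 CPM in KO. The groups did not overlap, although WT 3 was above the other WT libraries. The log2 fold change was 1.58 (SE 0.31, adjusted p = 0.0157 by edgeR). This call was lost without WT 1 (adjusted p = 0.0866) or WT 2 (adjusted p = 0.0793). The kinase genes Rock1 (log2 fold change 0.03, adjusted p = 0.850) and Rock2 (0.00077, adjusted p = 0.995) did not pass. Mylk, the calmodulin-dependent light chain kinase, had at most 2 reads in a library. The median of the 16 was -0.01.

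Of 15 tested chaperones, adaptors and cargo partners, 2 rose and 0 fell, where 3.25% of all tested genes were called as higher. Rilpl2, a Rab-binding protein that binds the tail of myosin Va, had 74.2, 66.5 and 70.4 CPM in WT and 81.2, 83.8 and 87.5 CPM in KO. Its log2 fold change was 0.25 (SE 0.05, adjusted p = 0.0243 by edgeR), without overlap. The call was lost without WT 1 (adjusted p = 0.0618), WT 2 (0.128), WT 3 (0.0738) or KO 3 (0.0588). Spire1, an actin nucleator that works with class V myosins on vesicles, had 0.61, 0.95 and 1.14 CPM in WT and 3.92, 3.20 and 3.78 CPM in KO. All KO libraries were above all WT libraries, and its log2 fold change was 1.99 (SE 0.26, adjusted p = 0.00259 by edgeR), with adjusted p up to 0.0283 under the alternatives. It had 11 to 23 reads per WT library and 62 to 85 per KO library. Spire1 was already known to be among the larger rises when this list was made, so its rise is not independent evidence. Unc45a, the chaperone that folds myosin heads, had 90.7 ± 5.25 CPM in WT and 84.5 ± 3.20 in KO (log2 fold change -0.12, adjusted p = 0.309), an item chosen after its values were seen. Espn, which binds the tails of class III myosins, had 65.1 ± 3.29 CPM in WT and 63.4 ± 5.98 in KO (log2 fold change -0.05, adjusted p = 0.769), chosen likewise. The median of the 15 was 0.11.

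**Figure D3:**
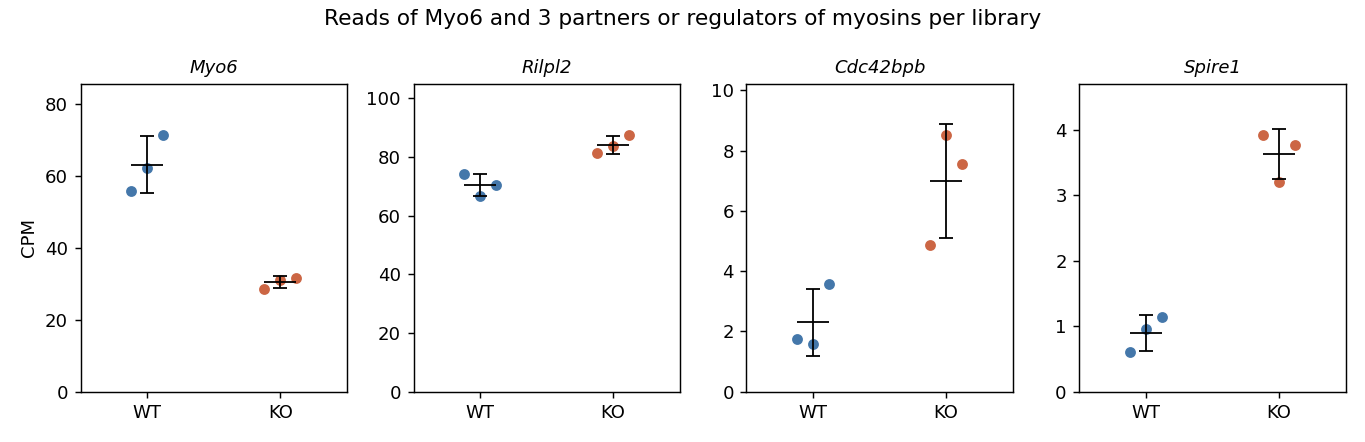
CPM of Myo6, Rilpl2, Cdc42bpb and Spire1 in each of 3 WT and 3 KO libraries (points), with mean and SD in black; each panel has its own linear axis from 0. Myo6 is at 55.9 to 71.5 CPM in WT and 28.6 to 31.7 CPM in KO, and the other 3 genes are higher in KO.

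Among actins, tropomyosins and crosslinkers, on which the motors work, 1 of 22 tested genes rose and 1 fell, near the share of 6.45% called over all tested genes. Flna, filamin A, which links actin filaments into networks, had 1143, 1095 and 1309 CPM in WT and 1535, 1462 and 1418 CPM in KO. The groups did not overlap, and the log2 fold change was 0.30 (SE 0.07, adjusted p = 0.0380 by edgeR). That call was lost with the replicate number as a block (adjusted p = 0.0649). It was lost too without WT 1 (0.162), WT 2 (0.169), KO 1 (0.103) or KO 2 (0.0533). With the summed Y-linked CPM of each library as a covariate, chosen after seeing the data, the adjusted p of Flna was 0.0546. Cnn3, the actin-binding protein calponin 3, had 13.5, 14.0 and 14.0 CPM in WT and 9.14, 9.55 and 9.38 CPM in KO. Every KO library was below every WT library, and the log2 fold change was -0.57 (SE 0.09, adjusted p = 0.00600 by edgeR). Without both WT 1 and KO 2 its adjusted p was 0.0666. Neither beta-actin (Actb, log2 fold change 0.02, adjusted p = 0.887) nor the tropomyosin gene Tpm4 (0.17, adjusted p = 0.120) passed. The median of the 22 was 0.01.

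**Figure D4:**
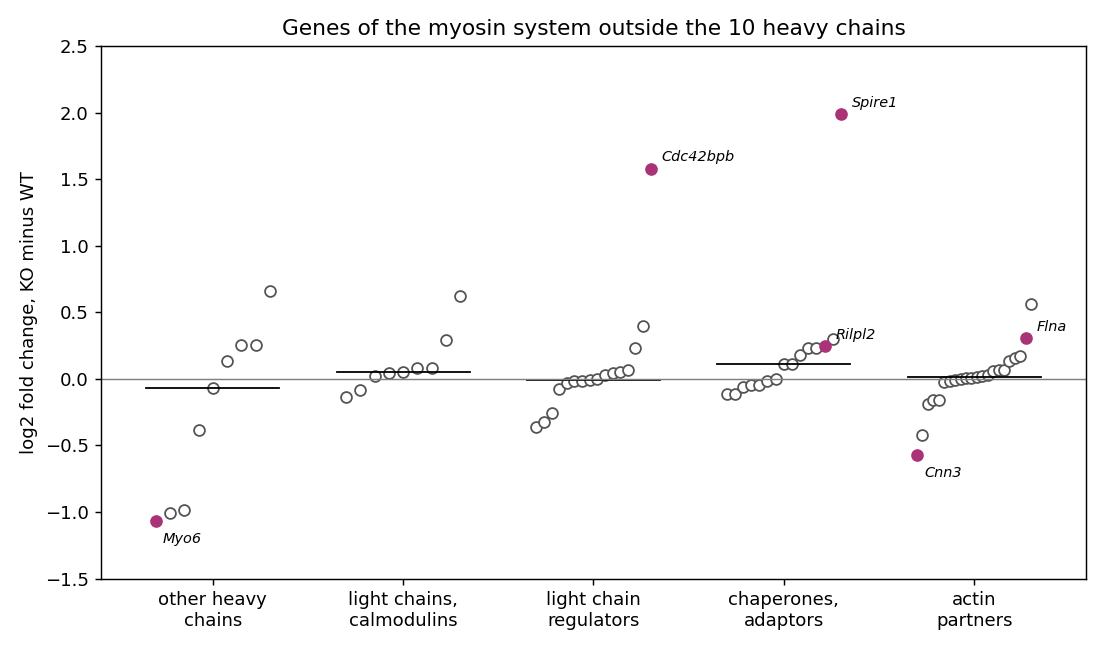
Log2 fold changes (KO minus WT) of every tested gene in 5 lists of the myosin system outside the 10 heavy chains; filled points were called by edgeR (adjusted p under 0.05), open points were not, and lines are list medians. Called genes are Myo6 and Cnn3 (lower) and Cdc42bpb, Spire1, Rilpl2 and Flna (higher).

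Genes around Myo3b were examined within 500 kb on either side. Of 30 such genes, 11 passed the filter, and 0 rose and 1 fell, near the share of 6.45% called over all tested genes. The nearest tested gene, Ubr3, ends 15.1 kb before Myo3b, and its log2 fold change was 0.02 (adjusted p = 0.850). Rpl9-ps7, a ribosomal protein pseudogene starting 29.8 kb after Myo3b, fell (log2 fold change -0.38, adjusted p = 0.0277 by edgeR). Reads of such a pseudogene can be shared with its parent gene, and the call was lost without any 1 of the 6 libraries (adjusted p between 0.0537 and 0.0971), in DESeq2 (0.0635) and with the replicate block (0.0553). The other 9 were Fastkd1, Ppig, Gm13622, Ccdc173, Phospho2, Ssb, Mettl5, Gorasp2 and Tlk1, with adjusted p of 0.153 or more. Exons of Myo3b share 70 bases with those of the transcript Gm13631 on the same strand, which had no read.

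The genes whose log2 CPM followed that of Myo3b most closely over the 6 libraries were Gm33707, Smim24, Panx1, Zc3h12b and Nckap1, with Pearson correlations of 0.9994, 0.9986, 0.9970, 0.9952 and 0.9949. These are the highest among 11154 genes that averaged 2 CPM or more, and 10 genes reached 0.99. The 6 points form the 2 genotypes, so a high value mainly says that a gene is steady within each genotype and higher in KO. Nckap1, a subunit of the WAVE complex that drives branched actin assembly, had 11.7, 10.8 and 12.1 CPM in WT and 25.2, 27.8 and 25.6 CPM in KO. Panx1, which forms ATP-releasing channels, had 111.0, 110.9 and 112.3 CPM in WT and 143.8, 147.8 and 146.1 CPM in KO. Gm33707 was without reads in WT and at 5.73 to 7.49 CPM in KO. By edgeR, Nckap1 (adjusted p = 0.000160), Panx1 (0.00102) and Gm33707 (0.000149) were called. Smim24 was called too (log2 fold change 0.66, adjusted p = 0.00569), with adjusted p up to 0.0736 under the alternatives. Zc3h12b, at 1.79 to 2.27 CPM, had log2 fold change 0.29 (SE 0.21) and was not called (adjusted p = 0.479). These genes were picked for following Myo3b, so their calls are not independent evidence.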

How the data were processed

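RNA of spleen GFP-positive Treg cells was sequenced in 3 WT and 3 KO libraries. The authors deposited raw counts: whole numbers of reads per gene, not normalized, in 1 column per library. Per the submitters' processing notes, the build was mm10 and the tools were HISAT2 2.1.0, fastp 0.23.2, DESeq2 1.34.0 and Picard. Their roles, the read counter, its strand setting and the annotation release: not given in the sources used here. Without strand, reads of genes that overlap on opposite strands cannot be separated.

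Of 54232 genes, 27 had symbols turned into dates, restored by gene identifier. Sept2, on the actin list, is in the table under a pair of identifiers with identical counts and was left out. Genes were kept by filterByExpr (minimum count 10, minimum total 15), normalized by TMM (factors 0.987 to 1.02) and tested with edgeR 4.0.16 (R 4.3.3) without a block. DESeq2 1.42.0 and limma-voom (limma 3.58.1) were alternatives, and the steps were tested on simulated data. Exon lengths and overlaps came from GENCODE M21 on the same build (GRCm38), and upstream sequences from RefSeq. Correlations used a pseudocount of 0.5 CPM.

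The 10 genes, the gene lists, the naming rule and the alternatives were chosen with earlier results of these data known. Named genes are Smarcd2, the 10, tested heavy chains, per list up to 4 called genes or that with the smallest p, Mylk, Rock1, Rock2, Myl6, Myl9, Myl12a, Myl12b, Actb, Tpm4, genes within 500 kb of Myo3b and the 5 most correlated with it. Unc45a and Espn fall outside this rule, as do the genes named for overlapping exons and the markers of cell type and Y-linkage. Whether each library is a separate mouse is not in the labels, and p-values then reflect only the spread between libraries, which may be technical. No pair within a genotype agreed within sampling noise (chi-square per degree of freedom at least 5.03). Intervals and floors cover counting error only.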

Additional observations from a re-analysis of the deposited data

How the results depend on the processing

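Myo3b kept its direction in all 15 alternatives, with log2 fold changes between 0.86 and 0.89, and Myo6 kept both direction and call (-1.16 to -0.96). With 1 library left out, the number of called genes over the whole table lay between 344 and 848, against 877 with all libraries. It was 344 without WT 1, 344 without WT 2 and 556 without WT 3. In the same fits the counts were 1 to 1 for other heavy chains, 0 to 0 for light chains, 0 to 2 for light chain regulators, 1 to 2 for adaptors and 1 to 2 for actin partners. Without a filter on low counts 1624 genes were called, with 3 light chain regulators and 4 actin partners. DESeq2 called 2 light chain regulators. With the replicate number as a block 738 genes were called and 1 actin partner, and with Y-linked CPM as a covariate 1 actin partner. Without the 2 libraries lacking Y-linked reads, 186 genes were called, with 0 light chain regulators, 1 adaptor and 0 actin partners. Both Y-linked choices were made after seeing the data. The cause was not tested beyond the smaller number of libraries or larger number of genes in these fits. Of 581 values of 39 other named genes in alternatives, 26 lost a call, in 6 genes. The sign changed in 17 values of 6 genes that were not called: Rock2, Actb, Rock1, Myo10, Myl12a and Ubr3. Of the 150 values of the 10 heavy chains, 1 changed sign, that of Myh9 without KO 3. Whether the shared replicate numbers pair the libraries cannot be settled with 3 libraries a genotype. Same-numbered libraries had correlations of deviations of -0.14, -0.05 and 0.15. Pairs with different numbers lay between -0.21 (WT 3 with KO 2) and 0.23 (WT 1 with KO 2). At 33 to 47 reads a library, the depth limits what can be said of Myo1d.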
